A study of Mus musculus with 12 samples.

Results

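The circadian clock genes were followed in whole lungs of mice with bleomycin injury, in 12 libraries of polyA RNA. The set held 10 genes, taken by symbol from the 55487 genes of the deposited tables: the activators Arntl, Npas2 and Clock, the repressors Per1, Per2, Per3 and Cry1, the nuclear receptors Nr1d1 and Nr1d2, and the output factor Dbp. All 10 passed the filter on low counts, as 17909 genes did. The set was drawn up because Npas2 had been seen higher at day 21 than at day 14. Differences of these genes from day 14 are therefore given as a description. Where members past the edgeR threshold are counted there, nothing is read from the counts. Tests are kept for the comparison of nanoparticles with vehicle, for variation among mice of 1 group, and for other genes of the clock pathway. Tests of those other genes against day 14 use the libraries that chose the set, so they are not independent of that choice.

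All 12 mice were wild-type (WT) C57BL/6J males aged 10 weeks, and all had received bleomycin, an anticancer drug that damages alveoli and is used to model lung scarring, by oropharyngeal dosing (0.0125 U per mouse, about 0.5 U/kg). The day 14 group (4 mice) had no further treatment, the day 21 vehicle group (4 mice) had intravenous saline, and the day 21 nanoparticle group (4 mice) had particles of poly(lactide-co-glycolide) coated with poly(ethylene-alt-maleic anhydride). The particles were injected behind the eye at 2 mg a dose, daily from day 14 to day 18, for 5 doses. The libraries were numbered 1 to 4 in each group as in the labels, where each number is another mouse. All 3 groups were injured lungs, so the values set injured lungs of different days and treatments beside each other. The clock time at which lungs were taken is not given in the sources used here, and its part in the results was not tested.

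The circadian clock is a loop of transcription and repression that runs in nearly every cell and is set to the day by the brain, by feeding and by hormones such as glucocorticoids. ARNTL (also called BMAL1) pairs with CLOCK or with its relative NPAS2 and switches on genes that carry an E-box, among them the Per and Cry genes and Nr1d1, whose proteins in turn hold the activators back. NR1D1 and NR1D2 (REV-ERB alpha and beta) repress Arntl at ROR elements, so that Arntl and Npas2 peak at about the opposite time of day from Nr1d1, Dbp and the Per genes. In the lung, clock genes cycle strongly in airway epithelium, and Nr1d1 is known for damping inflammation.

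Short promoter stretches that hold the clock's known elements are shown first, because the genes below are grouped by the arm of the loop to which these elements belong. RefSeq windows of 300 bases (250 before and 50 from each start; build GRCm38.p6) were at hand for 9 of the 10 genes, in 13 windows. They were searched on both strands for the E-box CACGTG, the related CACGTT, the ROR element core TAGGTCA, the D-box TTANGTAA and the cAMP element TGACGTCA. These lie in 7.17%, 4.71%, 2.61%, 2.29% and 1.8% of all 32544 windows. Capitals mark the matched element, every line reads 5′ to 3′ on the gene's own strand, and AACGTG is CACGTT read from the opposite strand.
Arntl, chr7:113207530-113207559, plus strand: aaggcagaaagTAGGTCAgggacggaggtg
Per1, chr11:69098771-69098800, plus strand: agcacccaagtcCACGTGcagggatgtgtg
Cry1, chr10:85185097-85185145, minus strand: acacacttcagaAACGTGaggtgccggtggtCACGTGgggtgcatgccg
Nr1d1, chr11:98775388-98775417, minus strand: cgcacagatctcAACGTGccggctgctgga
Per3, chr4:151044804-151044882, minus strand: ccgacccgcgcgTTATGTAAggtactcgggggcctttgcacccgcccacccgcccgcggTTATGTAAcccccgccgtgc
Arntl was the only gene of the 9 with the ROR element core in its windows, 30 bases after a RefSeq start, and Per3 the only one with a D-box, which it held at both ends of the printed stretch. An E-box was found for Per1 and Cry1, the related CACGTT for Cry1 and Nr1d1, and the cAMP element for 0 of the 9 genes. The Per1 E-box began 166 bases before its RefSeq start, which lies inside the gene as GENCODE annotates it, and the Cry1 E-box 60 bases before the RefSeq start of Cry1. These matches describe letters in a window and show neither binding nor cause.

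Stretches upstream of a RefSeq start of Arntl and of Npas2, the pair that moved most closely together among mice, held no match to the elements searched and are shown for comparison. The Arntl stretch runs from position −120 to −1 relative to its start. The Npas2 stretch runs from −180 to −61, outside exons but inside the gene as GENCODE annotates it.
Arntl, chr7:113207345-113207464, plus strand: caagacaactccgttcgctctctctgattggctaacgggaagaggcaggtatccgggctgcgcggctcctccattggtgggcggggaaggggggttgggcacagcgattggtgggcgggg
Npas2, chr1:39194092-39194211, plus strand: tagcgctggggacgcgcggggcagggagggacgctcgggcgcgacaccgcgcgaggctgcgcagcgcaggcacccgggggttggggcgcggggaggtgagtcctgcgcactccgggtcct

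Library totals ran from 24138582 to 42714693 counts, and 3 counts, the limit that a count of 0 allows, came to 0.0719 to 0.125 CPM (counts scaled to library size). Markers of lung tissue were present in every library: the 5 alveolar type 2 markers summed to 34498 to 46562 TPM (a unit that corrects for transcript length) and the 3 club cell markers to 84524 to 116160 TPM. Day 14 replicate 2 stood apart, as the lowest or the highest library of its group for 70.7% of all genes tested, and it had the highest immediate early score (1.53, the mean of the genes' centred log2 CPM). Nanoparticle replicate 3 had a neutrophil marker score of 3.62. Values without these libraries are given where they move a result.

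Per length of transcript, on the TPM scale, the output factor and the nuclear receptors were the most abundant and Arntl and Npas2 the least. Mean TPM over the 12 libraries was 149.7 ± 39.5 (SD, n = 12) for Dbp, 110.4 ± 34.6 for Nr1d1, 85.1 ± 13.0 for Nr1d2, 35.0 ± 16.1 for Per1, 28.3 ± 5.00 for Per3, 19.3 ± 7.99 for Per2, 18.6 ± 2.48 for Clock, 10.7 ± 3.92 for Cry1, 3.96 ± 1.92 for Arntl and 1.22 ± 0.613 for Npas2. Dbp was thus 122 times Npas2. Nr1d2 was above Per1, and Arntl above Npas2, in 12 of 12 libraries, so these steps in the order held in every mouse. Per2 and Clock could not be put in order, since Per2 was above Clock in 6 of 12 libraries, and Nr1d1 was above Nr1d2, and Per1 above Per3, in 9 of 12.

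Arntl (chr7:113207465-113314126, plus strand, GRCm38) encodes the partner with which CLOCK or NPAS2 forms an activator of the clock. It was at 3.28, 4.34, 4.25 and 4.53 CPM in the 4 day 14 lungs. It was at 7.89, 12.5, 4.84 and 6.20 CPM with vehicle and at 6.51, 12.1, 10.5 and 4.96 CPM with nanoparticles at day 21. Every day 21 library was above every day 14 library, and the spread within both day 21 groups was wide, with replicate 2 highest in each. The log2 difference from day 14 was 0.94 ± 0.32 (SE, 4 against 4) for vehicle and 1.06 ± 0.32 for nanoparticles. In bulk tissue, fewer cells of a type and less RNA per cell cannot be told apart, here and in all that follows.

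Npas2 (chr1:39193731-39363236, plus strand), the relative of CLOCK by which the set was chosen, was the least abundant of the 10, with 34 to 142 counts a library. Its level was 1.13, 1.36, 1.27 and 1.74 CPM at day 14, 2.68, 4.28, 1.90 and 2.13 CPM with vehicle, and 2.03, 3.03, 2.89 and 1.59 CPM with nanoparticles. The vehicle libraries all lay above day 14, while nanoparticle replicate 4 fell inside the day 14 range. Npas2 differed from day 14 by 1.01 ± 0.28 (SE, log2) for vehicle and 0.80 ± 0.28 for nanoparticles. On the TPM scale, which rests on the length estimated for the gene in each library, it was 0.52 for vehicle on log2(TPM + 0.1), and the groups overlapped (0.56 to 1.46 TPM at day 14, 0.76 to 2.46 TPM with vehicle).

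Clock (chr5:76209868-76304792, minus strand), the usual partner of ARNTL, was at 90.7, 68.2, 92.9 and 94.1 CPM at day 14. It was at 99.1, 107, 93.2 and 105 CPM with vehicle and at 103, 118, 109 and 96.1 CPM with nanoparticles. Its differences were smaller than those of Arntl and Npas2: 0.22 ± 0.10 (SE, log2) for vehicle and 0.30 ± 0.10 for nanoparticles. All 4 nanoparticle libraries were above all 4 of day 14, but vehicle replicate 3 was not. Without day 14 replicate 2, which was low for Clock, the vehicle difference was 0.14.

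The Per genes encode the proteins that, with the cryptochromes, bind the activator and stop it; Per1 and Per2 also respond quickly to hormones and stress. Per1 (chr11:69095217-69109960, plus strand) was the most variable of the 10. It was at 182, 98.3, 169 and 97.2 CPM at day 14, 97.1, 31.0, 121 and 54.7 CPM with vehicle, and 96.4, 26.4, 90.6 and 104 CPM with nanoparticles. The highest library was 6.89 times the lowest, and the groups overlapped. Replicate 2 of each day 21 group was far below its group mates. The log2 difference from day 14 was −0.85 ± 0.50 (SE) for vehicle and −0.78 ± 0.50 for nanoparticles. The 95% confidence intervals were wide, at −1.98 to 0.28 for vehicle and −1.91 to 0.35 for nanoparticles.

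Per2 (chr1:91415982-91459324, minus strand) was at 141, 63.6, 113 and 88.9 CPM at day 14. It was at 55.9, 41.5, 80.6 and 52.9 CPM with vehicle and at 57.4, 30.8, 70.4 and 80.7 CPM with nanoparticles. Most day 21 libraries were below most day 14 libraries, with an overlap made by day 14 replicate 2. Its log2 difference was −0.82 ± 0.33 (SE) for vehicle and −0.76 ± 0.33 for nanoparticles. Per3 (chr4:151003652-151044665, minus strand), which is thought to matter less for the core loop, ranged from 58.7 to 113 CPM over all 12 libraries. Its differences were −0.16 ± 0.17 and −0.26 ± 0.17, and its groups overlapped.

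Cry1 (chr10:85131700-85185064, minus strand) encodes the strongest repressor of the loop. It was at 37.1, 18.2, 28.4 and 27.3 CPM at day 14. It was at 14.6, 11.5, 18.2 and 16.1 CPM with vehicle, each below the lowest day 14 library by a margin that was narrow for vehicle replicate 3 (18.17 against 18.21 CPM). It was at 15.6, 13.0, 19.4 and 19.8 CPM with nanoparticles, where 2 libraries lay above day 14 replicate 2. The log2 difference was −0.88 ± 0.21 (SE) for vehicle and −0.72 ± 0.21 for nanoparticles, and −1.02 and −0.86 without day 14 replicate 2.

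Nr1d1 (chr11:98767932-98775333, minus strand) encodes REV-ERB alpha, a repressor of Arntl. It was at 65.2, 174, 110.1 and 142 CPM at day 14. It was at 223, 189, 202 and 219 CPM with vehicle, all above day 14, and at 186, 225, 134 and 254 CPM with nanoparticles, where replicate 3 overlapped day 14. The log2 difference was 0.76 ± 0.27 (SE) for vehicle and 0.71 ± 0.27 for nanoparticles. Arntl and its repressor were thus both at higher mean levels at day 21.

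The exons of Nr1d1 share 263 bases, 8.55% of its exon length, with Thra on the opposite strand. The strand setting of the counting is not given in the sources used here, so reads from the shared bases cannot be assigned. Thra, a thyroid hormone receptor, was at 80.0 ± 5.79 CPM (SD, n = 4) at day 14, 110.0 ± 6.57 with vehicle and 106 ± 11.6 with nanoparticles. Its part in the Nr1d1 values was not tested.

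Nr1d2 (chr14:18204054-18239127, minus strand), the second REV-ERB, was at 203 ± 16.5 CPM (SD, n = 4) at day 14, 215 ± 29.5 with vehicle and 207 ± 35.4 with nanoparticles. It ranged from 174 to 256 CPM over the 12 libraries, the groups overlapped, and its log2 differences were 0.08 ± 0.12 (SE) and 0.03 ± 0.12. Dbp (chr7:45705088-45710203, plus strand), a transcription factor driven directly by the activators and a standard readout of clock phase, was at 99.9, 199, 124 and 151 CPM at day 14. It was at 160, 109, 173 and 158 CPM with vehicle and at 131, 100.1, 84.7 and 186 CPM with nanoparticles. The groups overlapped, with log2 differences of 0.06 ± 0.27 for vehicle and −0.19 ± 0.27 for nanoparticles; without day 14 replicate 2, the highest of its group for Dbp, they were 0.27 and 0.02. Dbp shares 539 exon bases, 18% of its exon length, with Sphk2 on the opposite strand, which was at 28.0 to 39.3 CPM.

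**Figure D1:**
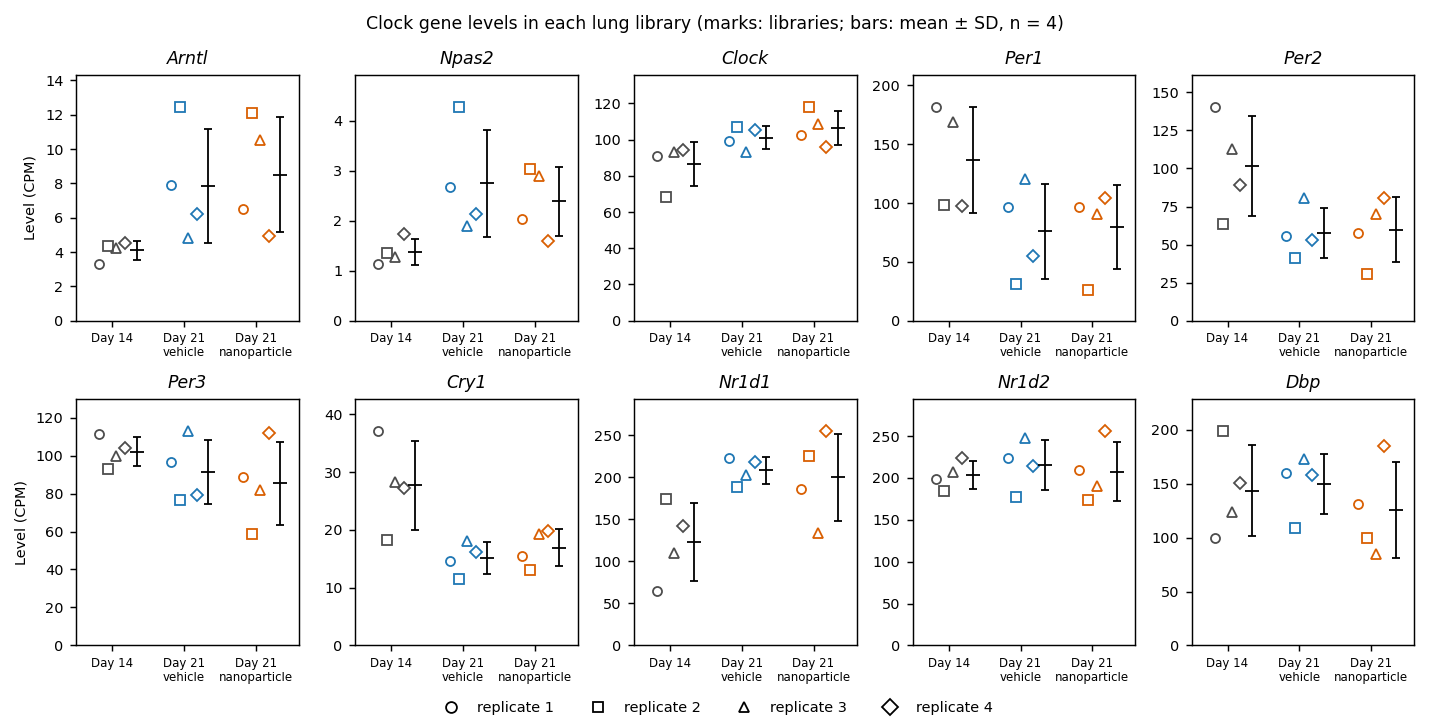
Level of each of the 10 clock genes in CPM (vertical axes, from 0, a scale for each gene) in every library of the 3 groups; marks are libraries, shaped by replicate number, and bars give the mean and SD of 4 libraries. Arntl lies higher in every day 21 library than in every day 14 library, Per1 spreads from 26.4 to 182 CPM, and Nr1d2 overlaps throughout.

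Seen over the 10 genes, the day 21 groups were not shifted in 1 direction. With vehicle, 6 genes had a positive and 4 a negative difference from day 14, with a median of 0.07 (log2) beside 0.003 over all genes tested. With nanoparticles the split was 5 and 5, with a median of −0.08 beside 0.006. Libraries of the groups did not overlap for 4 of 10 genes with vehicle (Arntl, Npas2 and Nr1d1 higher, Cry1 lower), where 17.9% of all genes tested were as separate (7.2% higher and 10.7% lower), and for 2 of 10 with nanoparticles (Arntl and Clock higher), beside 19% (8.47% higher and 10.6% lower). In edgeR, at an adjusted p under 0.05, 1 of 10 was past the threshold in each direction with vehicle (Npas2 higher, Cry1 lower), where 10.3% of all genes tested were (3.79% higher and 6.51% lower). With nanoparticles it was also 1 of 10 in each direction (Arntl higher, Cry1 lower), where 14.7% were (6.16% higher and 8.56% lower). These comparisons chose the set, so nothing is read from these counts. Both share the same 4 day 14 libraries, so their likeness is not independent either.

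**Figure D2:**
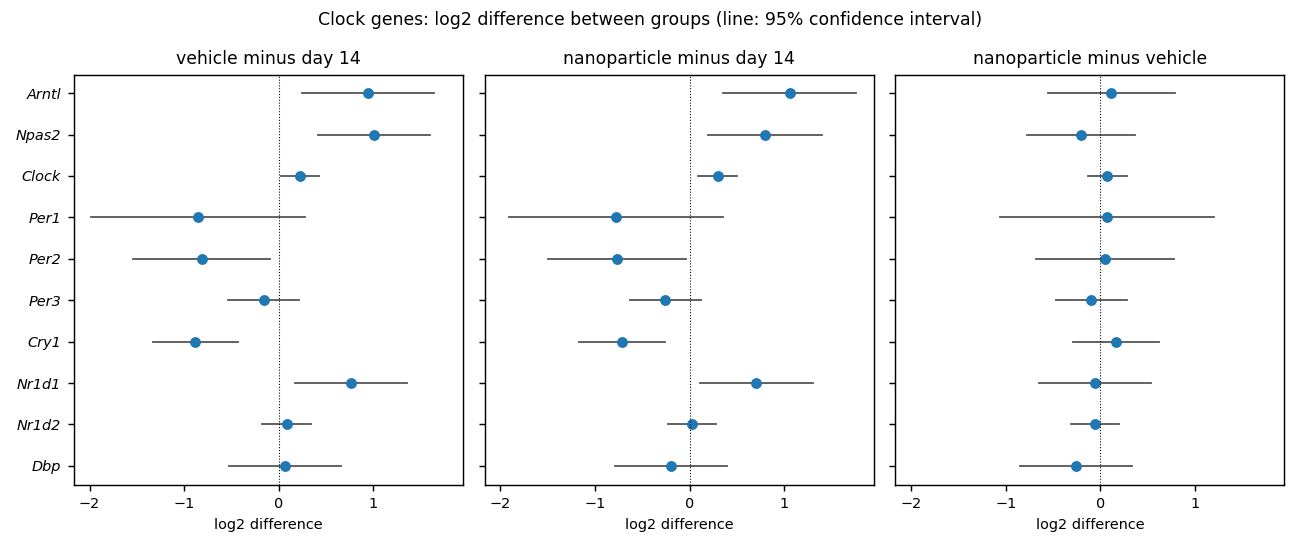
Log2 difference of each clock gene (points) with its 95% confidence interval (lines) for vehicle minus day 14, nanoparticle minus day 14 and nanoparticle minus vehicle, from a fit of all 12 libraries. Differences from day 14, given as a description, reach 1.06 for Arntl and −0.88 for Cry1. All 10 points of nanoparticle minus vehicle lie between −0.26 and 0.17.

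Nanoparticles against vehicle, both at day 21, is the comparison that asks what the particles did, and the choice of the set did not use it. No clock gene passed the threshold: 0 of 10 in edgeR's quasi-likelihood test, 0 of 10 at an unadjusted p under 0.05, and 0 of 10 in DESeq2. Over all genes tested 0% passed in edgeR (762 genes, or 4.25%, at an unadjusted p under 0.05), and 19 genes passed in DESeq2. The 10 log2 differences ran from −0.26 (Dbp) to 0.17 (Cry1), and the smallest unadjusted p was 0.359, for Dbp. The adjusted p was 0.999 for each of the 10.

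The interval for each gene gives the range of differences that these 4 against 4 lungs did not exclude. It was narrow for Clock (95% confidence interval −0.13 to 0.28, log2) and Nr1d2 (−0.31 to 0.20). It was −0.56 to 0.79 for Arntl, −0.78 to 0.37 for Npas2, −0.68 to 0.78 for Per2, −0.65 to 0.53 for Nr1d1 and −0.85 to 0.34 for Dbp. For Per1 it reached from −1.06 to 1.20, so a difference of 2-fold in either direction was not excluded there. Per3 had −0.47 to 0.28 and Cry1 −0.29 to 0.62. The groups of 4 overlapped for all 10 genes, beside 3.55% of all genes tested that did not overlap.

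Among mice of 1 group, most of the clock genes varied more than the median gene. The pooled SD within groups, on log2 CPM, was 0.80 for Per1, higher than in 98.5% of all genes tested. It was 0.51 for Per2, 0.49 for Arntl, 0.43 for Nr1d1, 0.41 for Dbp, 0.41 for Npas2, 0.34 for Cry1 and 0.28 for Per3. Only Nr1d2 (0.19) and Clock (0.16) were close to the median of all genes, 0.15. The median of the 10 was 0.41, which is a description, since this spread also depends on how abundant a gene is.

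These deviations were shared between genes. Vehicle replicate 2 was the lowest or the highest library of its group for 10 of 10 clock genes: highest for Arntl, Npas2 and Clock and lowest for the other 7. Across all genes tested it was lowest or highest for 56.2%. Nanoparticle replicate 2 had the same 3 genes at their highest and Per1, Per2, Per3, Cry1 and Nr1d2 at their lowest, 8 of 10 in all, beside 48.9% of all genes. Nanoparticle replicate 4 was the mirror image, with Arntl, Npas2 and Clock lowest and the other 7 highest (10 of 10, beside 51.5%). Vehicle replicate 3 was lowest for Arntl, Npas2 and Clock and highest for 6 of the others (9 of 10, beside 39.2%, and not highest for Nr1d1). These libraries were singled out after their values were seen. The counts are not independent, since the genes move together.

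**Figure D3:**
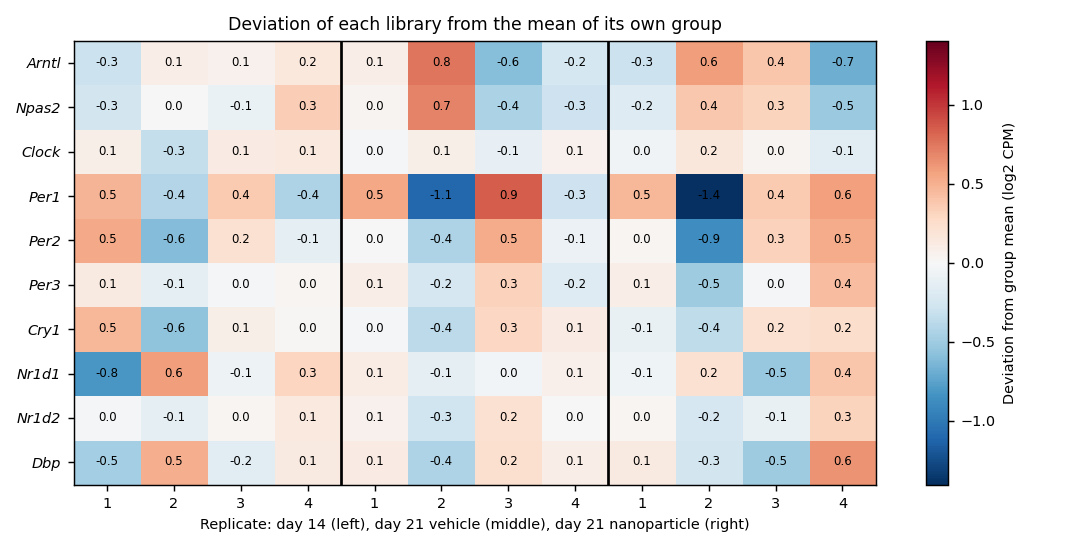
Deviation of each library (columns, by group and replicate) from the mean of its own group in log2 CPM, for each clock gene (rows); red is above the group mean and blue below. Replicate 2 of both day 21 groups is red for Arntl, Npas2 and Clock and blue for the Per genes and Cry1, and nanoparticle replicate 4 shows the reverse.

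Arntl and Npas2 varied closely together among mice of the same group. With group means removed, Pearson's r over the 12 libraries was 0.96 (exact permutation of libraries within groups, two-sided, p = 7.23e-05, the smallest that 13824 permutations can give; adjusted p = 0.00326 over 45 pairs). Spearman's rho was 0.97, with the same p. Without the 2 libraries farthest from the Arntl median, nanoparticle replicate 4 and vehicle replicate 3, r was 0.94 (exact permutation p = 0.00116). Of the 17908 other genes tested, Npas2 was the closest to Arntl, and Arntl the closest to Npas2. On log2(TPM + 0.1) r was 0.69 (adjusted p = 0.115), so the strength of the relation rests on the count scale.

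Arntl had negative r with the repressors and with Dbp, though 1 pair passed after adjustment. Its r was −0.84 with Nr1d2 (exact permutation p = 0.00868, adjusted p = 0.0430; rho −0.68, p = 0.0530), −0.81 with Per3, −0.75 with Per1, −0.71 with Per2, −0.63 with Cry1 and −0.60 with Dbp. Only the pair with Nr1d2 passed the threshold after adjustment; adjusted p was 0.0530 for Per3, 0.0595 for Per1, 0.0575 for Per2, 0.0680 for Cry1 and 0.117 for Dbp. The Nr1d2 pair was not past the threshold without the 2 libraries farthest from the Arntl median (r = −0.66, p = 0.117), nor on TPM (r = −0.65, adjusted p = 0.161). With Nr1d1, the other REV-ERB, r was −0.04 (exact permutation p = 0.902), and it was 0.20 without those 2 libraries. These r pool the 3 groups, and some signs differed between groups of 4 libraries. For Nr1d1, r was 0.91 at day 14, −0.47 with vehicle and −0.46 with nanoparticles. It was 0.29, −0.93 and −0.97 for Nr1d2, and 0.77, −0.93 and −0.93 for Dbp. For the Per genes and Cry1 it was negative in every group. These differences between groups were not tested.

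The pair of Arntl and Nr1d2 was also lost with any of 8 libraries left out. Adjusted p was then 0.0505 without day 14 replicate 3, 0.0971, 0.143, 0.0547 and 0.127 without nanoparticle replicates 1 to 4, and 0.0599, 0.158 and 0.121 without vehicle replicates 1 to 3, with r between −0.86 and −0.76. Day 14 replicate 2 bore on the partner pair: r of Arntl with Clock was 0.44 (adjusted p = 0.145) with it and 0.86 (adjusted p = 0.0381) without it. Pairs of Clock moved too, without day 14 replicate 2 and nanoparticle replicate 4, the 2 libraries farthest from the Clock median. The r changed from −0.33 to −0.92 with Per1, −0.07 to −0.84 with Per2 and −0.41 to −0.98 with Per3. It changed from 0.21 to −0.65 with Cry1 and −0.26 to −0.79 with Nr1d2. With Dbp it weakened, from −0.73 to −0.44, and with Nr1d1 it went from −0.46 to 0.29. The part of each library was not tested.

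The repressors moved together among mice of 1 group. Per2 and Cry1 had r = 0.92 (exact permutation p = 0.000217, adjusted p = 0.00488; rho 0.90). Per1 and Per2 had r = 0.89 (p = 0.000506, adjusted p = 0.00760; rho 0.85). Per1 and Per3 had r = 0.87 (p = 0.00109, adjusted p = 0.00977; rho 0.91), and Per2 and Per3 had r = 0.86 (p = 0.00101, adjusted p = 0.00977; rho 0.81). All of these kept an r of at least 0.69 without the 2 libraries farthest from the median. The unadjusted exact permutation p was then 0.00810 for Per2 with Cry1 and 0.0475 for Per1 with Per2. It was 0.0255 for Per1 with Per3 and 0.0266 for Per2 with Per3. Pairs without Arntl were not checked on TPM.

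Cry1 followed Per1 (r = 0.73, exact permutation p = 0.00593, adjusted p = 0.0381) and Per3 (r = 0.67, p = 0.00723, adjusted p = 0.0407) less closely. Without the 2 libraries farthest from the median, r was 0.55 (exact permutation p = 0.192) with Per1 and 0.60 (p = 0.0616) with Per3. Nr1d2 went with Per3 (r = 0.87, p = 0.00456, adjusted p = 0.0342). Nr1d1 went with Dbp (r = 0.80, p = 0.00955, adjusted p = 0.0430), but without day 14 replicates 1 and 2 r was 0.73 (p = 0.0790). In all, 20 of the 45 pairs had a positive and 25 a negative r, and 10 passed the adjusted threshold, 9 of them positive; by Spearman's rho 5 passed.

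**Figure D4:**
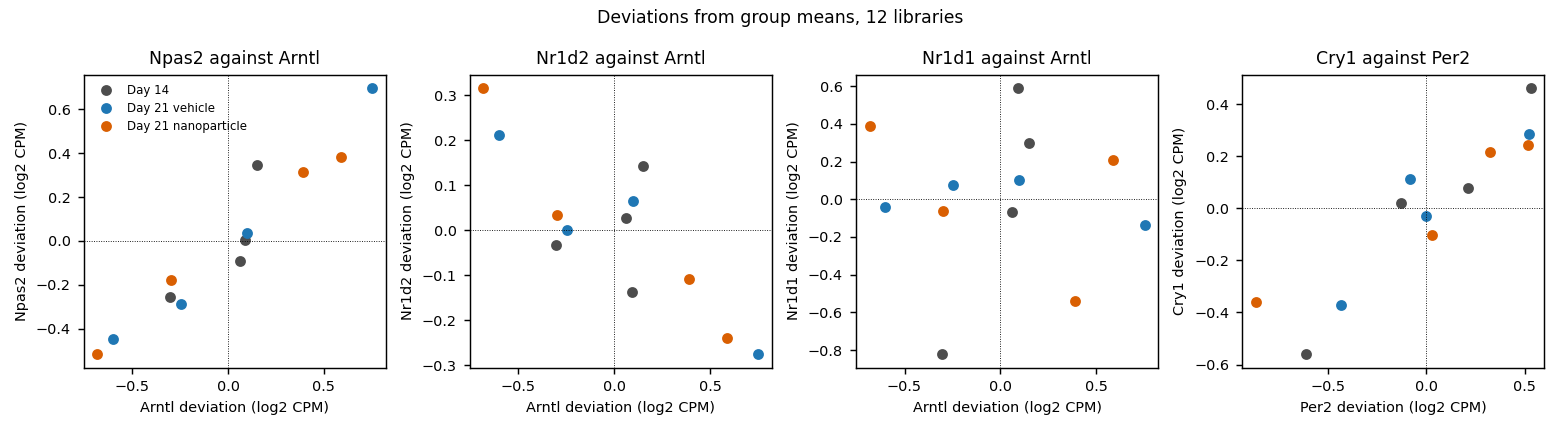
Deviations from group means in log2 CPM for 4 gene pairs over the 12 libraries (points, coloured by group): Npas2, Nr1d2 and Nr1d1 against Arntl, and Cry1 against Per2. Npas2 climbs with Arntl (r = 0.96) and Cry1 with Per2 (r = 0.92). Over the 3 groups pooled, Nr1d2 drops (r = −0.84) and Nr1d1 has an r near 0 (−0.04). For Nr1d1 this pools a positive r at day 14 (0.91) with negative ones for vehicle (−0.47) and nanoparticles (−0.46).

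At day 14, Nr1d1 and Dbp went with Arntl rather than against it at the low end only. Day 14 replicate 1 had the lowest Arntl, Nr1d1 and Dbp of its group and the highest Per1, Per2, Per3 and Cry1. Arntl was highest in day 14 replicate 4, and Nr1d1 and Dbp in day 14 replicate 2. In the day 21 groups, the libraries with the highest Arntl (replicate 2 in each) had Dbp at or near its lowest, 109 and 100.1 CPM. The difference between days in this respect was not tested.

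Genes whose variation among mice was most like that of Arntl, outside the set, were Tbccd1 (r = 0.91), Pycard (0.87, the inflammasome adaptor ASC), Leo1 (0.87), Det1 (0.86) and Inip (0.86). Those most opposed to it were Hlf (−0.91) and Ciart (−0.91), a clock output factor and a clock repressor, then Dgat2 (−0.90), Plin4 (−0.88) and Paip2 (−0.88). For Npas2 the closest were Tbccd1 (0.92), Gas2 (0.86), Pycard (0.86), Nme6 (0.85) and Fam110b (0.84). The most opposed were Dpf2 (−0.91), Cox6b2 (−0.91), Vdac1 (−0.91), Plin4 (−0.89) and Cidec (−0.89). These are Pearson's r over 12 libraries with group means removed, among 13220 genes, and are given as a description. The libraries share depth and composition across genes.

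The wider clock pathway was read from a list of 28 further genes, of which 27 could be tested (Rorb was too low). From day 14 to day 21 with vehicle, 6 of the 27 changed, 5 of them downward, beside 10.3% of all genes tested that changed (3.79% up and 6.51% down). With nanoparticles, 5 of the 27 changed, 4 of them downward, beside 14.7% (6.16% up and 8.56% down). The median difference was −0.10 (log2) with vehicle and −0.11 with nanoparticles, beside 0.003 and 0.006 over all genes. The comparisons share their day 14 libraries. They are also the comparisons that led to the set, and the list was chosen with earlier results of these data known. Hlf and Ciart, which are in the list, each had an r of −0.91 with Arntl among mice. The counts and tests of these genes are therefore not independent of the set.

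Tspan4, a tetraspanin that cycles in several tissues, fell in both comparisons. It was at 109 ± 7.72 CPM (SD, n = 4) at day 14, 64.6 ± 10.4 with vehicle and 65.7 ± 9.06 with nanoparticles, with no overlap. The log2 difference was −0.76 ± 0.12 (SE; edgeR adjusted p = 0.00325) and −0.73 ± 0.12 (adjusted p = 0.00239). Tspan4 passed the threshold in both comparisons under all 19 alternative settings.

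Nfil3 (E4BP4), the repressor that competes with DBP for the D-box, fell with vehicle, from 10.6, 8.97, 10.6 and 8.04 CPM at day 14 to 5.39, 5.18, 4.67 and 5.02 CPM. The log2 difference was −0.92 ± 0.17 (SE; edgeR adjusted p = 0.00596). With nanoparticles it was at 7.64, 6.02, 9.65 and 5.00 CPM, replicate 3 being within the day 14 range, and the difference of −0.43 ± 0.17 did not pass (adjusted p = 0.0939). Without nanoparticle replicate 3, the library with the high neutrophil score, that adjusted p was 0.0140. Nanoparticle minus vehicle was 0.48 ± 0.17 (edgeR adjusted p = 0.981). Nfil3 was the only gene of the 27 at an unadjusted p under 0.05 there.

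Bhlhe40 (DEC1), a repressor at E-boxes, fell in both comparisons: 143 ± 10.2 CPM (SD, n = 4) at day 14, 109 ± 16.6 with vehicle (log2 difference −0.39 ± 0.09, edgeR adjusted p = 0.0219) and 106 ± 7.82 with nanoparticles (−0.43 ± 0.10, adjusted p = 0.00983). The vehicle group overlapped day 14 (vehicle replicate 4 at 132 CPM, day 14 replicate 1 at 130 CPM), and the nanoparticle group did not. The vehicle call was lost without day 14 replicate 3 (adjusted p = 0.0738) or vehicle replicates 1, 2 or 3 (0.0750, 0.0563 and 0.0608). Its close relative Bhlhe41 was at 36.6 ± 1.60, 39.4 ± 5.33 and 34.9 ± 6.81 CPM and did not pass in either.

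Wee1 and Usp2, a kinase that holds cells before division and a deubiquitinase, both outputs of the clock, also fell. Wee1 was at 46.2 ± 14.1 CPM (SD, n = 4) at day 14, 26.3 ± 5.18 with vehicle (−0.82 ± 0.21, edgeR adjusted p = 0.0307) and 24.8 ± 3.67 with nanoparticles (−0.90 ± 0.21, adjusted p = 0.0170). The vehicle group overlapped day 14 for Wee1 (vehicle replicate 3 at 32.6 CPM, day 14 replicate 2 at 32.3 CPM), and the nanoparticle group did not. The calls for Wee1 were lost without the filter on low counts (adjusted p = 0.0983 and 0.0566). The vehicle call was also lost without day 14 replicates 1 or 3 (0.0615 and 0.0789) or vehicle replicates 1, 2 or 4 (0.0894, 0.0726 and 0.0529).

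Usp2 was at 17.1, 13.6, 15.9 and 12.2 CPM at day 14, 9.52, 7.14, 12.2 and 9.33 CPM with vehicle and 9.92, 8.72, 10.6 and 12.3 CPM with nanoparticles. The log2 difference for Usp2 was −0.62 ± 0.15 (SE; edgeR adjusted p = 0.0235) with vehicle and −0.50 ± 0.16 (adjusted p = 0.0449) with nanoparticles, where the groups overlapped. On log2(TPM + 0.1) neither call for Usp2 held (adjusted p = 0.437 and 0.283), and the nanoparticle call was lost without the filter on low counts (0.0587). With vehicle it was lost without day 14 replicates 1 or 3 (0.0702 and 0.0736) or vehicle replicates 1 or 2 (0.0675 and 0.0527). With nanoparticles it was lost without any of 8 libraries, with adjusted p up to 0.124, without day 14 replicate 1.

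Cry2, Rora, Ciart, Tef and Hlf did not pass in either comparison. Cry2 was at 73.6 ± 11.6 CPM (SD, n = 4) at day 14, 73.3 ± 5.20 with vehicle and 70.7 ± 9.66 with nanoparticles, beside the lower Cry1 levels given above; the contrast between the 2 cryptochromes was not tested. Rora, an activator of Arntl at the ROR element, was at 69.7 ± 11.2, 73.0 ± 7.60 and 71.6 ± 5.27 CPM.

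Ciart, a repressor, was at 17.0 ± 1.07 CPM (SD, n = 4) at day 14, 12.4 ± 3.65 with vehicle (edgeR adjusted p = 0.241) and 11.2 ± 3.74 with nanoparticles (adjusted p = 0.118). All 4 nanoparticle libraries were below day 14, narrowly for nanoparticle replicate 4 (15.40 CPM, against 15.54 CPM in day 14 replicate 4). Tef and Hlf, the relatives of Dbp, were at 355 ± 31.1 and 45.1 ± 4.09 CPM at day 14, 322 ± 60.0 and 37.0 ± 12.1 with vehicle, and 311 ± 70.6 and 34.5 ± 14.1 with nanoparticles. Their lowest libraries at day 21 were again replicate 2 of both groups, with Hlf at 20.8 and 23.3 CPM.

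**Figure D5:**
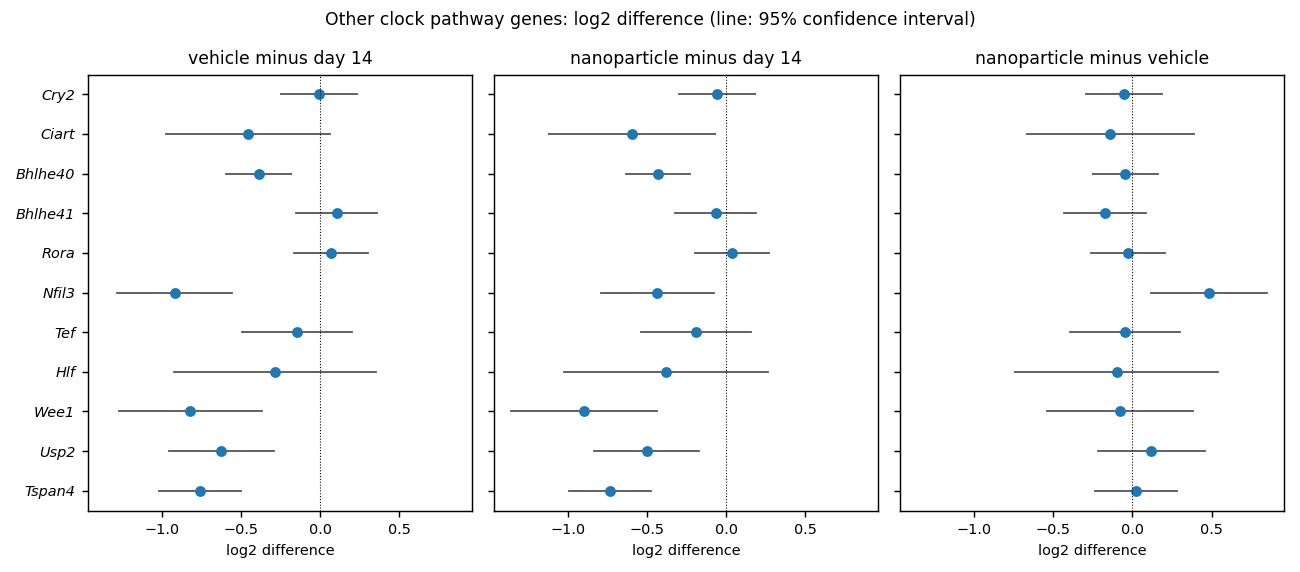
Log2 difference (points) with its 95% confidence interval (lines) for pathway genes outside the set that the text names, in the 3 comparisons. Tspan4, Bhlhe40, Wee1 and Usp2 lie below 0 in both comparisons with day 14, and in nanoparticle minus vehicle Nfil3 has the point farthest from 0, 0.48.

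In nanoparticle minus vehicle, 0 of the 27 pathway genes passed in edgeR or in DESeq2, and 1 was at an unadjusted p under 0.05, beside 4.25% of all genes tested. The median difference was −0.02.

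Marker lists are given by their counts, to be read beside the share of all genes tested that changed, 10.3% with vehicle and 14.7% with nanoparticles. Of 8 genes of the glucocorticoid response, a hormone signal that also drives Per1, 4 fell with vehicle (Sgk1, Mt1, Mt2 and Cdkn1a) and 3 with nanoparticles (Mt1, Mt2 and Cdkn1a), with medians of −0.66 and −0.55 (log2). The score of this list was 1.01 and 0.57 in day 14 replicates 1 and 3, the libraries with the highest Per1. It was −0.45 and −0.61 in vehicle and nanoparticle replicate 2, those with the lowest Per1. These libraries were picked for their Per1, and others did not keep this order. Nanoparticle replicate 3 had a score of 0.31 with Per1 at 90.6 CPM, and nanoparticle replicate 4 had −0.14 with Per1 at 104 CPM. Vehicle replicate 1 had −0.27 and day 14 replicate 4 had −0.08, with Per1 at 97.1 and 97.2 CPM. Over the groups it ranged from −0.08 to 1.01 at day 14, −0.45 to 0.12 with vehicle and −0.61 to 0.31 with nanoparticles. Of 9 immediate early genes, 1 (Atf3) fell with vehicle and 0 with nanoparticles, with scores of −0.27 to 1.53 at day 14, −0.59 to 0.001 with vehicle and −0.34 to 0.39 with nanoparticles. All 5 markers of dividing cells fell in both comparisons, with scores of 0.81 to 1.03 at day 14, −0.80 to 0.13 with vehicle and −1.46 to −0.24 with nanoparticles. In both comparisons 2 of 4 fibroblast markers fell (Col1a1 and Col1a2; summed 776 to 929 TPM at day 14, 592 to 680 with vehicle and 535 to 583 with nanoparticles). In both, 1 of 5 alveolar type 2, 1 of 4 alveolar type 1, 1 of 3 club and 1 of 3 ciliated markers rose. Of the endothelial, alveolar macrophage, cardiac muscle, neutrophil and B cell lists 0 markers passed in either, although neutrophil markers summed to 124 to 322 TPM at day 14, 226 to 533 with vehicle and 375 to 5464 with nanoparticles. The cardiac muscle score varied among mice, from −0.42 (replicate 2) to 0.50 (replicate 3) with vehicle. With nanoparticles it ran from −0.78 (replicate 3) to 0.57 (replicate 4), and at day 14 from −0.32 to −0.03. Libraries ranked by this score in the order of Dbp in both day 21 groups, but not at day 14. In nanoparticle minus vehicle 0 markers of any list passed in edgeR. The part of these signals in the clock gene values was not tested.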

How the data were processed

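Per the labels' protocols, all 5 lung lobes of each mouse were homogenised in TRIzol and polyA libraries were sequenced on an Illumina NovaSeq. Tools listed in the submitters' processing notes are RSEM 1.3.3, STAR 2.7.8a, cutadapt 4.8, FastQC 0.11.8 and MultiQC 1.20, with GRCm38; for the strand setting and annotation release, nothing is given in the sources used here. The authors deposited RSEM expected counts, whole numbers per gene and library, and TPM values scaled per library; FPKM values were not used here. A set of 4 reporter entries had a summed count of 0.

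Expected counts were tested with edgeR 4.0.16 in R 4.3.3 (statmod 1.5.0): filterByExpr (minimum count 10, minimum total 15) left 17909 genes, then TMM scaling and a robust quasi-likelihood fit of 12 libraries with group as the term. Calls needed a p under 0.05 after Benjamini-Hochberg adjustment over all genes tested. CPM are counts over TMM-scaled totals, and log2 CPM used a prior count of 2. The common biological coefficient of variation was 0.119, and pairs of replicates differed by a chi-square of 8.17 to 33.7 per degree of freedom, so no library was a copy. A total of 24138582 to 42714693 counts per library bounds precision; floors cover counting error only. Alternatives were upper-quartile and RLE scaling, no filter, DESeq2 1.42.0, limma 3.58.1 on log2(TPM + 0.1), the 2 groups compared alone, a replicate block and each library left out. Scripts were tested on simulated data.

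The members and lists were chosen with earlier results of these data known. Named were all 10 members, every pathway gene past the threshold (at most 4 per comparison in full, by p), and always Cry2, Rora, Tef, Hlf, Nfil3, Bhlhe40 and Ciart; for Arntl and Npas2, the 5 highest and 5 lowest r among genes of mean log2 CPM of at least 1, leaving out members, predicted genes, pseudogenes and receptor segments. Some listed pathway genes are counted but not reported here. Bhlhe41 and single marker genes were named after their values were seen. Coordinates are from GENCODE M21 (GRCm38), promoters from RefSeq. Marker lists covered alveolar type 1 and 2, club, ciliated and endothelial cells, fibroblasts, alveolar macrophages, cardiac muscle, neutrophils, B cells, dividing cells, immediate early genes and the glucocorticoid response.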

Additional observations from a re-analysis of the deposited data

Results flagged for a closer look

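Among the 30 groups of 4 libraries checked (10 clock genes in 3 groups), 1 held a library far from its group mates: Clock in day 14 replicate 2, at 68.2 CPM beside 90.7 to 94.1 CPM in the other day 14 libraries. The gap to the nearest library was 0.869 of the range of the group. Chance flags about 1 in 20 such groups. The same library was the lowest or highest of its group for 70.7% of all genes tested.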

How the results depend on the processing

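Calls from day 14 depended on the test and on single libraries. With vehicle, 1845 genes passed, 995 with limma on TPM and 719 to 2162 with 1 library left out (719 without day 14 replicate 3, 1012 without day 14 replicate 1, 744 and 866 without vehicle replicates 1 and 3). With nanoparticles, 2636 passed, 1577 on TPM, 1672 in a fit of the 2 groups alone and 1363 to 2934 with 1 left out (1363 and 1570 without day 14 replicates 3 and 1, 1625 and 1384 without nanoparticle replicates 2 and 4). Pathway genes numbered 6 with vehicle (3 to 8 with 1 left out; 3 without day 14 replicate 3 or vehicle replicates 1 or 2) and 5 with nanoparticles (4 to 6; 3 without the filter). For nanoparticle minus vehicle, DESeq2 called 19 genes and all other settings 0; clock genes called were 0 in every setting.

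With 1 library left out, small differences of nanoparticle minus vehicle turned: Arntl −0.10 to 0.43, Npas2 −0.35 to 0.092, Per1 −0.19 to 0.38, Per2 −0.13 to 0.27, Per3 −0.26 to 0.044, Nr1d1 −0.20 to 0.093 and Nr1d2 −0.17 to 0.019. The r of Arntl with Nr1d1 ran from −0.33 to 0.19, and was 0.20 without the 2 farthest libraries. The cause was not tested. Replicate numbers did not pair the mice: deviations of same-numbered libraries correlated at −0.07 to 0.15, and 6 of 24 were closest to their own number. The replicate block gave 1673 and 2419 genes from day 14, 8 and 6 pathway genes, and 0 clock genes in nanoparticle minus vehicle. With 4 mice a group, the interval for Per1 in nanoparticle minus vehicle reached past 2-fold; Npas2 rests on 34 to 142 counts.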
